A study of Mus musculus with 12 samples.

Results

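Mitochondrial ribosomal proteins are the nuclear-encoded proteins of the ribosome that works inside mitochondria. The genes were taken by symbol (Mrpl or Mrps followed by a number, pseudogenes left out), which gave 78 of the 56748 genes in the count table. Of these, 51 encode proteins of the large subunit and 26 proteins of the small subunit. Mrps18a and Mrps30 are counted in the large subunit, where their proteins sit. Mrps36 carries the family symbol but encodes a subunit of the 2-oxoglutarate dehydrogenase complex, and it was kept as the rule gives it. The study asked what the K700E mutation of the splicing factor SF3B1, frequent in myelodysplastic neoplasms with ring sideroblasts, does to erythroid cells.

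RNA came from G1E-ER4 cells, a murine proerythroblast line that lacks GATA1 and carries a GATA1 fusion to the estrogen receptor ligand-binding domain, so that estradiol starts erythroid differentiation. CRISPR-Cas9 editing gave Sf3b1 K700E/+ cells, with 1 mutated allele, and isogenic Sf3b1 +/+ cells, with the hygromycin cassette used for selection removed from both by flippase. After 24 h of β-estradiol, 3 poly(A) RNA-seq libraries of each genotype were compared, and libraries without estradiol were not analysed here. Each genotype is 1 clone grown from a sorted single cell, so genotype and clone cannot be told apart. No separate culture is named for each library in the labels, and p-values therefore reflect the variation among these 6 libraries, which may be technical. Total counts ran from 38785471 to 50077827 per library. The least read member among those tested had 203 reads in its lowest library, and the median SE of a member's log2 fold change was 0.07.

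The mitochondrial ribosome translates the few messages of the mitochondrial genome, all of them for subunits of the respiratory chain and the ATP synthase. Its ribosomal RNAs are made in the mitochondrion, whereas all of its proteins are imported from the cytosol. Some of the proteins descend from those of bacterial ribosomes and others were added in mitochondria. Erythroid cells make heme in large amounts, and the first and last steps of heme synthesis take place in mitochondria. SF3B1 belongs to the U2 snRNP, which recognises the branch point ahead of the acceptor (3′ splice site) of an intron, and K700E is known for letting the spliceosome use cryptic acceptors a short way upstream of the normal ones.

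The splice junctions below are shown because a longer splicing path at each was used more in Sf3b1 K700E/+ cells. They were read from the GENCODE M21 transcript (GRCm38) of the gene that has an intron of the length given in the event table, 15 bases on each side, in the direction of transcription. Capitals mark the exon that follows the annotated acceptor. At each of them the longer path adds bases of the intron directly before the capitals. The upstream acceptor itself is shown only for Mrpl14, since a genome of the build of the event table (GRCm39) was not used here.
Mrpl42 exon 1 to exon 2, 25 bases added: gatggcgagcgcgcgGAACGAAAATCTGTG
Mrps7 exon 3 to exon 4, 19 bases added: tctctcatggctcagACTCTGGAAGCTGTG
Mrpl21 exon 6 to exon 7, 14 bases added: tcaggaagaaaaaaaTCATTGTGAACCCTC
Mrpl14 exon 1 to exon 2, 55 bases added: caggctgttaacgcgGTTTGCCGTCTTGGG

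The Mrpl14 intron is covered at its end by a shorter annotated transcript that starts inside it. It holds both acceptors, shown here as 30 bases each with the AG that ends the intron in capitals. The upstream acceptor lies 55 bases before the annotated one. Of the 9 bases that this transcript has before the upstream AG, 66.7% were pyrimidines, against 88.9% of 18 bases before the annotated AG.
Mrpl14 upstream acceptor: ctgtgctacAGtgtcttctcccacacaggc
Mrpl14 annotated acceptor: ctctgtcccctttcctgcAGgtttgccgtc

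In Sf3b1 K700E/+ cells, 20 mitoribosomal genes were higher and 6 were lower than in Sf3b1 +/+ cells, and 51 did not pass the test (edgeR quasi-likelihood test, Benjamini-Hochberg adjusted p under 0.05 over all genes). The share of members called was 33.8%, against 44.4% of all 12547 genes tested. By direction, 21.3% of all genes were higher and 23.1% lower. The median log2 fold change (Sf3b1 K700E/+ over Sf3b1 +/+) of the 77 members tested was 0.06, with quartiles of -0.06 and 0.20. Over all genes the median was -0.01 and the quartiles were -0.30 and 0.25. Only Mrps7 and Mrpl23 also passed the threshold of the study of an absolute log2 fold change over 1, which 10.3% of all genes passed. Summed over the members, the level was 4893, 4888 and 4796 CPM in the Sf3b1 K700E/+ libraries. It was 4934, 4712 and 4551 CPM in the Sf3b1 +/+ libraries. CPM is a count scaled to a fixed library total, so that libraries of different depth compare. These sums used library totals alone, and on this scale the genotypes overlapped. Levels of single genes also used TMM factors, which adjust the library size. The factors were 1.00, 0.983 and 0.971 in Sf3b1 K700E/+ and 1.02, 1.01 and 1.01 in Sf3b1 +/+ libraries. They would raise the mutant sums relative to the wild-type sums, and the overlap depends on leaving them out. In bulk RNA, fewer cells of a type and less RNA per cell cannot be told apart. Without Sf3b1 +/+ replicate 3, 12 members were higher and 8 lower. Scaled by library size alone, 16 were higher and 10 lower, and with the replicate number as a block 27 were higher and 11 lower. The main test has no such block, although libraries with the same number deviated together.

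**Figure D1:**
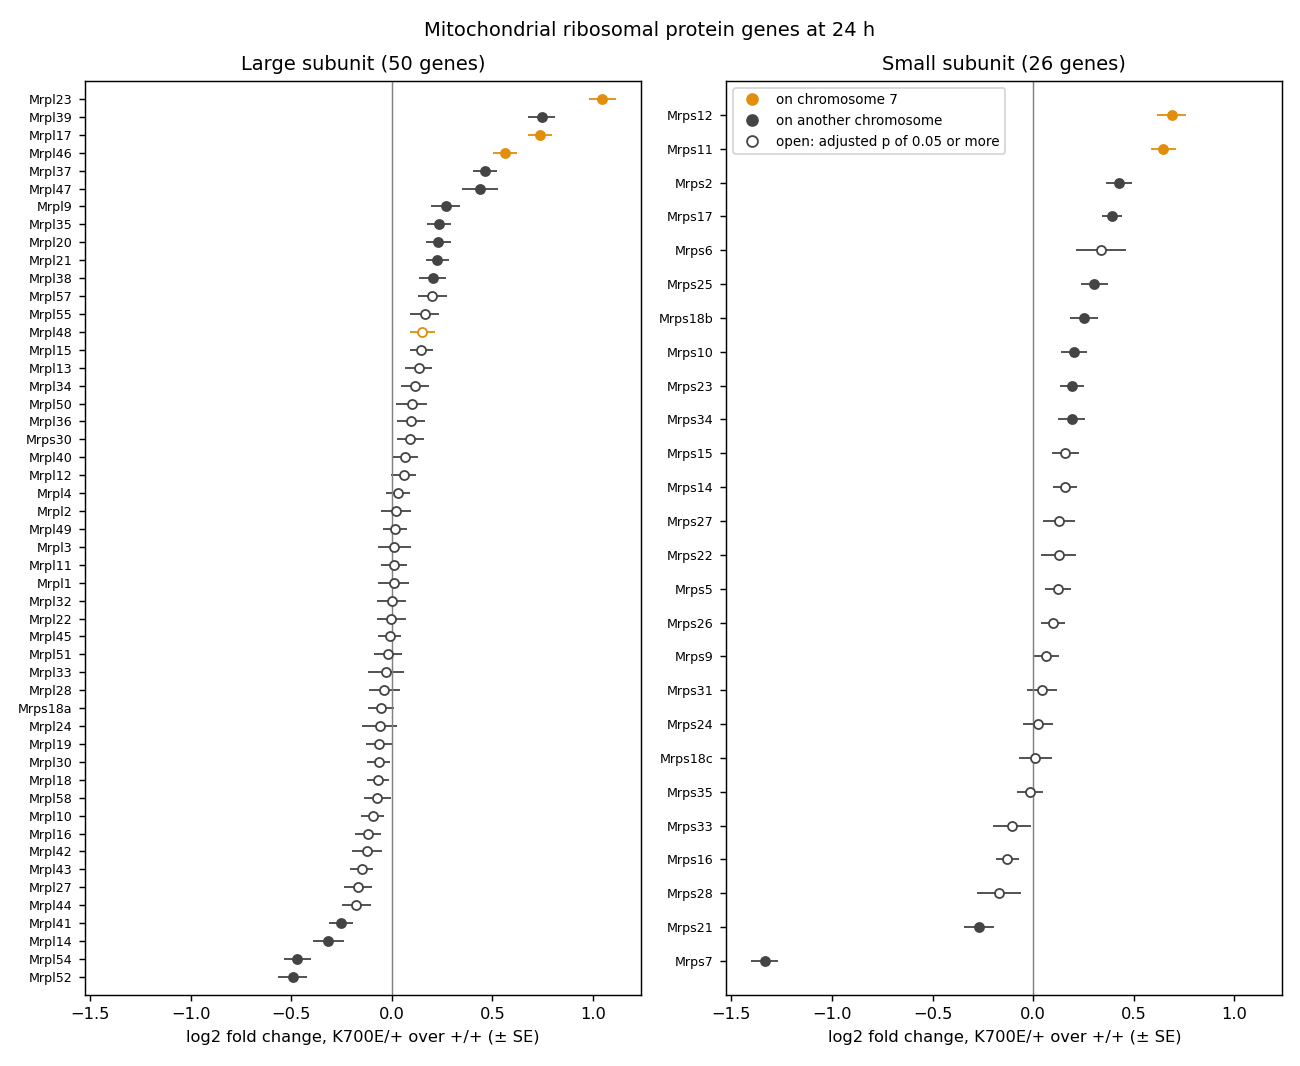
Log2 fold change of each tested mitoribosomal gene (x axis, Sf3b1 K700E/+ over Sf3b1 +/+, bars are standard errors) for the 50 genes of the large and the 26 of the small subunit, with filled points for an adjusted p under 0.05 and orange points for genes on chromosome 7. Most points lie close to 0, Mrps7 stands alone at -1.34, and orange points take most of the upper end.

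The 6 lower genes were led by Mrps7, which encodes a small subunit protein of bacterial descent (uS7m) that binds the ribosomal RNA in the head of the subunit. Mrps7 was at 29.4, 29.1 and 29.7 CPM in the Sf3b1 K700E/+ libraries and at 79.5, 72.2 and 71.0 CPM in the Sf3b1 +/+ libraries. Every mutant library was below every wild-type library, with means of 29.4 ± 0.331 and 74.2 ± 4.58 CPM (SD, n = 3). The log2 fold change was -1.34 (SE 0.07, adjusted p = 1.64e-06 from edgeR), and over 13 alternatives it stayed between -1.38 and -1.28. The 3′ end of Mrps7 overlaps that of Mif4gd on the other strand, and whether reads were counted by strand is not given in the sources used here. Mif4gd was higher in the mutant, by a log2 fold change of 0.38 (SE 0.06, adjusted p = 0.00122 from edgeR).

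Mrpl52 and Mrpl54 followed, both added to the ribosome in mitochondria. Mrpl52, a protein of the central protuberance of the large subunit, was at 93.6, 90.7 and 82.4 CPM in Sf3b1 K700E/+ and at 126, 133 and 117 CPM in Sf3b1 +/+ libraries (log2 fold change -0.49, SE 0.07, adjusted p = 0.000556 from edgeR). Mrpl54, near the stalk that recruits translation factors, was at 38.3, 41.9 and 42.3 against 55.2, 59.0 and 55.6 CPM (log2 fold change -0.47, SE 0.07, adjusted p = 0.000454 from edgeR). The libraries of the genotypes did not overlap for either gene, as for 54.3% of all genes tested. Mrpl14, whose protein faces the small subunit, had a log2 fold change of -0.32, Mrps21 (bS21m) of -0.27 and Mrpl41 of -0.25, with adjusted p of 0.00878, 0.0150 and 0.00877 from edgeR. The call of Mrps21 was lost without Sf3b1 K700E/+ replicate 1 (adjusted p = 0.0534) and without Sf3b1 +/+ replicate 2 (adjusted p = 0.0705), and that of Mrpl41 without Sf3b1 +/+ replicate 2 (adjusted p = 0.0534), all from edgeR.

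**Figure D2:**
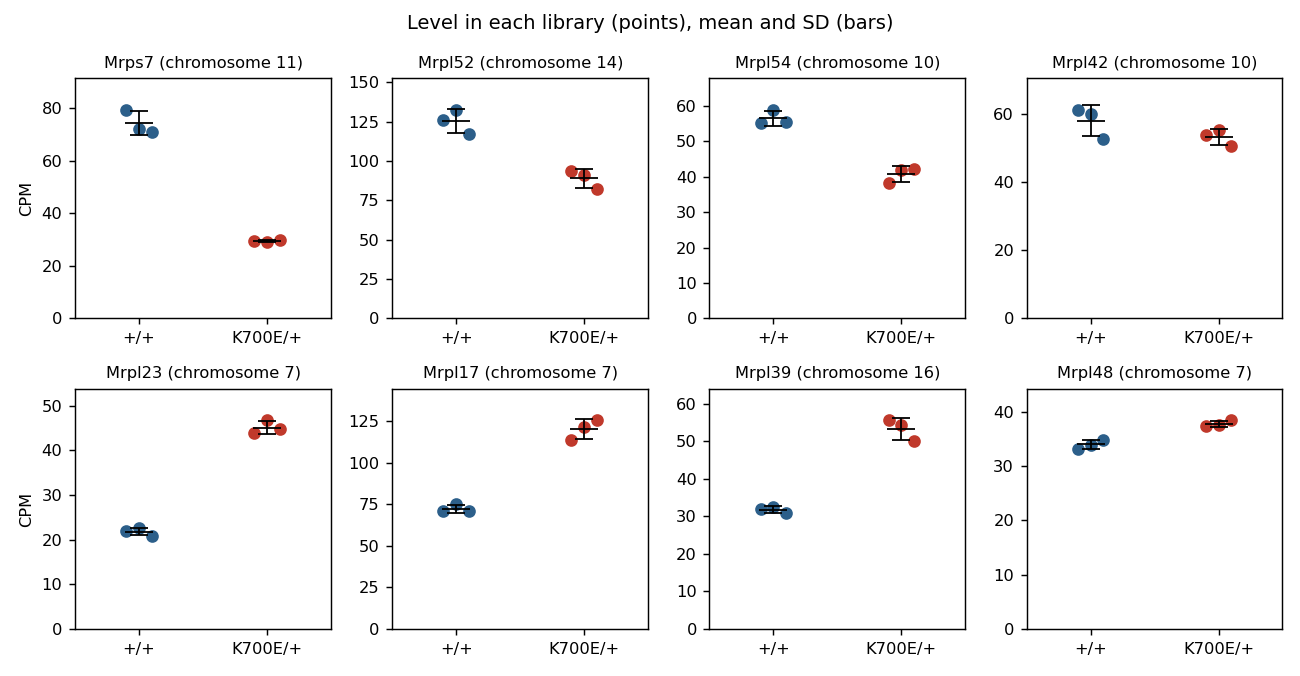
Level in CPM (y axis, from 0) of 8 mitoribosomal genes in each library (points), with the mean and SD of 3 libraries per genotype (bars). Mrps7, Mrpl52 and Mrpl54 are lower and Mrpl23, Mrpl17 and Mrpl39 higher in Sf3b1 K700E/+ cells without overlap, whereas the genotypes overlap for Mrpl42 and lie within 33.2 to 38.4 CPM for Mrpl48.

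The largest rise was in Mrpl23, whose protein (uL23m) sits at the exit of the tunnel through which the new protein leaves. Mrpl23 was at 43.8, 46.7 and 44.7 CPM in Sf3b1 K700E/+ and at 22, 22.6 and 20.9 CPM in Sf3b1 +/+ libraries. All mutant libraries were above all wild-type libraries, with a log2 fold change of 1.05 (SE 0.07, adjusted p = 6.21e-06 from edgeR). Mrpl17 (bL17m), also at the tunnel exit, was at 114, 121 and 125 against 70.7, 74.8 and 70.7 CPM (log2 fold change 0.74, SE 0.06, adjusted p = 2.48e-05 from edgeR). Mrps12, a protein of the decoding centre, was at 47.8, 49.2 and 47.3 against 28.4, 32.3 and 28.8 CPM (log2 fold change 0.69, SE 0.07, adjusted p = 8.12e-05 from edgeR). Mrps11, of the small subunit platform, was at 71.8, 73.0 and 73.8 against 49.4, 44.7 and 45.4 CPM (log2 fold change 0.65, SE 0.06, adjusted p = 5.36e-05 from edgeR). Mrpl46, of the central protuberance, was at 65.7, 65.1 and 65.4 against 45.5, 45.5 and 41.9 CPM (log2 fold change 0.56, SE 0.06, adjusted p = 9.71e-05 from edgeR). None of these genes, picked by their low adjusted p, overlapped between the genotypes, as was so for 54.3% of all genes tested.

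These 5 genes lie on chromosome 7, and genes of this chromosome were higher in Sf3b1 K700E/+ cells as a whole. Of 954 tested genes that GENCODE M21 places there, 60% were higher and 7.34% lower, and their median log2 fold change was 0.46. On the 19 other chromosomes the median lay between -0.09 and 0.03, and 14.9% to 21.3% of genes were higher. Chromosome 7 was cut into 15 windows of 10 Mb, with 21 to 130 tested genes each, and every window had a median between 0.35 and 0.63. Over the 744 genes of chromosome 7 with at least 1 CPM in every library, the median log2 ratio to the Sf3b1 +/+ mean was 0.48, 0.49 and 0.51 in the 3 Sf3b1 K700E/+ libraries and -0.03, 0.03 and 0.01 in the Sf3b1 +/+ libraries. Genes elsewhere had medians of -0.02 in each Sf3b1 K700E/+ library. DNA was not measured in these libraries, and with 1 clone per genotype the mutation and a difference of chromosome 7 between the clones cannot be told apart.

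**Figure D3:**
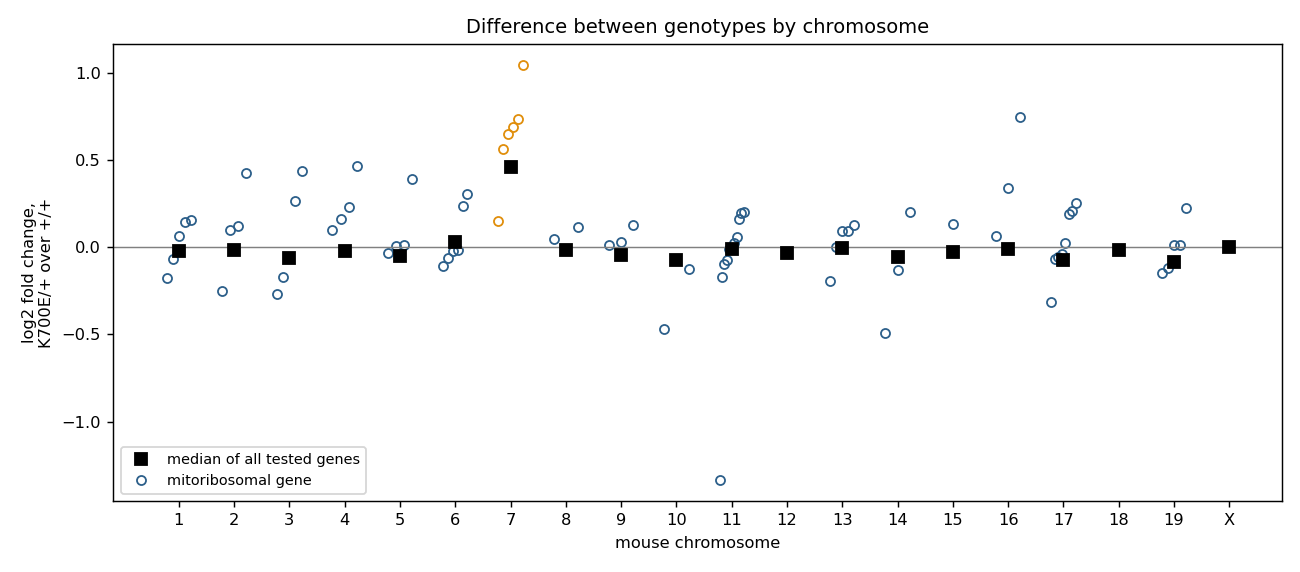
Log2 fold change (y axis, Sf3b1 K700E/+ over Sf3b1 +/+) by mouse chromosome (x axis), with squares for the median of all tested genes and circles for single mitoribosomal genes, orange on chromosome 7. The square of chromosome 7 stands at 0.46 and all others between -0.09 and 0.03.

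All 6 mitoribosomal genes of chromosome 7 were above 0, and 5 were called higher, where 60% of the genes of this chromosome were. The sixth was Mrpl48, at 37.5, 37.5 and 38.4 CPM in Sf3b1 K700E/+ and 33.2, 34.0 and 34.9 CPM in Sf3b1 +/+ libraries (log2 fold change 0.15, SE 0.06, adjusted p = 0.0718 from edgeR). With the replicate number as a block Mrpl48 was called higher as well (adjusted p = 0.0317 from edgeR), and so were all 6. It is named, like Mrpl21, Mrpl16, Mrps10 and Mrps23 below, after its values were seen. When the genes of chromosome 7 were scaled on themselves, the log2 fold change of Mrpl23 was 0.59 (adjusted p = 0.000143), that of Mrpl17 0.28 (adjusted p = 0.00410), that of Mrps12 0.23 (adjusted p = 0.0205) and that of Mrps11 0.19 (adjusted p = 0.0458), all from edgeR. That of Mrpl46 was 0.10 (adjusted p = 0.207) and that of Mrpl48 was -0.31 (adjusted p = 0.00336 from edgeR). Relative to their chromosome, Mrpl23, Mrpl17, Mrps12 and Mrps11 thus remained higher, Mrpl46 did not pass the test and Mrpl48 was lower.

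Outside chromosome 7, 15 of 71 mitoribosomal genes were higher and 6 lower, against 18.3% higher and 24.5% lower among all genes placed elsewhere. Their median log2 fold change was 0.02, against -0.03 for all genes elsewhere. When only genes outside chromosome 7 set the scaling, 19 of the 71 were higher and 6 lower, with a median of 0.05. The largest rise was in Mrpl39 on chromosome 16, a mitochondria-specific protein of the large subunit. Mrpl39 was at 55.5, 54.3 and 49.99 CPM in Sf3b1 K700E/+ and at 32.0, 32.5 and 30.9 CPM in Sf3b1 +/+ libraries (log2 fold change 0.75, SE 0.07, adjusted p = 3.69e-05 from edgeR). Mrpl37, also mitochondria-specific, was at 99.3, 103 and 105 against 77.4, 73.8 and 71.6 CPM (log2 fold change 0.46, SE 0.06, adjusted p = 0.000242 from edgeR). Mrpl47 (uL29m), of the tunnel exit, was at 25.9, 23.8 and 23.5 against 19.7, 17.1 and 17.2 CPM (log2 fold change 0.44, SE 0.09, adjusted p = 0.00342 from edgeR). In the small subunit, Mrps2 had a log2 fold change of 0.43 (SE 0.06, adjusted p = 0.000707 from edgeR) and Mrps17 of 0.39 (SE 0.05, adjusted p = 0.000305 from edgeR). The genotypes did not overlap for any of these 5 genes, also picked by their low adjusted p, as for 54.3% of all genes tested. The 10 other higher genes rose by log2 fold changes of 0.19 to 0.30.

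By subunit, 11 of 50 tested genes of the large subunit were higher and 4 lower (median log2 fold change 0.01), and 9 of 26 of the small subunit were higher and 2 lower (median 0.13). Proteins with a bacterial counterpart and mitochondria-specific proteins had 12 of 46 and 8 of 30 higher, with 3 lower in each. At the tunnel exit 4 of 8 genes were higher and none lower, namely Mrpl17, Mrpl23, Mrpl39 and Mrpl47, with the first and second on chromosome 7. At the central protuberance 2 of 8 were higher and 1 lower, and of the 4 tested stalk genes only Mrpl54 was called, as lower. The share called was 30% in the large and 42.3% in the small subunit, against 44.4% of all genes tested. It was 32.6% with a bacterial counterpart and 36.7% among mitochondria-specific proteins. By site it was 50% at the tunnel exit, 37.5% at the central protuberance and 25% at the stalk. The difference between these groups was not tested.

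In the splicing table, the members had 90 rows in 36 genes. Of these, 84 events in 34 genes reached the minimum of 10 reads in each of the 6 libraries, both paths summed, and were tested. PSI (percent spliced in, written here as a fraction) is the fraction of reads on the longer path, with the reads of each path first divided by its length. An event was called with an adjusted p under 0.05 and an absolute PSI difference over 0.10. By these thresholds 6 events in 4 mitoribosomal genes were called, or 7.14%, against 6.31% of all 17656 events tested. Higher PSI was called in 3 of them (2.17% of all events) and lower PSI in 3 (4.14% of all events). The count fell to 3 on leaving out replicate 1 or 3 of Sf3b1 K700E/+ or replicate 1 of Sf3b1 +/+, and was 2 with limma on logit PSI. Mrpl42 and Mrps7 were called in each of these and the other settings at this PSI threshold.

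The strongest event lay in Mrpl42, which encodes a mitochondria-specific protein, at chr10:95336345-95337808 of GRCm39 on the minus strand. An acceptor 25 bases upstream of the annotated one, absent from the annotation used for the table, extends exon 2 ahead of the coding sequence of the transcript shown above. The longer path had a PSI of 0.505, 0.476 and 0.407 in Sf3b1 K700E/+ and of 0.00894, 0.00331 and 0 in Sf3b1 +/+ libraries. It rested on 180, 190 and 104 reads in Sf3b1 K700E/+ and on 3, 1 and 0 reads in Sf3b1 +/+ libraries, next to 203 to 254 reads of the annotated junction there. The PSI difference was 0.458 (adjusted p = 1.69e-15 from edgeR). The level of Mrpl42 was 53.2 ± 2.41 CPM in Sf3b1 K700E/+ and 58.0 ± 4.58 CPM in Sf3b1 +/+ cells (SD, n = 3), which overlapped (log2 fold change -0.12, SE 0.07, adjusted p = 0.208 from edgeR).

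In Mrps7, the lower gene with the largest change, an unannotated acceptor 19 bases upstream was used at chr11:115495872-115496833 of GRCm39. This intron lies within the coding sequence, and a stretch of 19 bases is not a multiple of 3. The longer path had a PSI of 0.152, 0.196 and 0.161 in Sf3b1 K700E/+ and of 0.0153, 0.0106 and 0.0127 in Sf3b1 +/+ libraries. The PSI difference was 0.157 (adjusted p = 1.57e-10 from edgeR). Reads over the annotated junction numbered 171, 139 and 130 in Sf3b1 K700E/+ and 363, 375 and 375 in Sf3b1 +/+ libraries, while those of the longer path numbered 38, 42 and 31 against 7, 5 and 6. Both the gene count and the annotated junction were thus lower in mutant cells, with the extra path added to a smaller total.

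**Figure D4:**
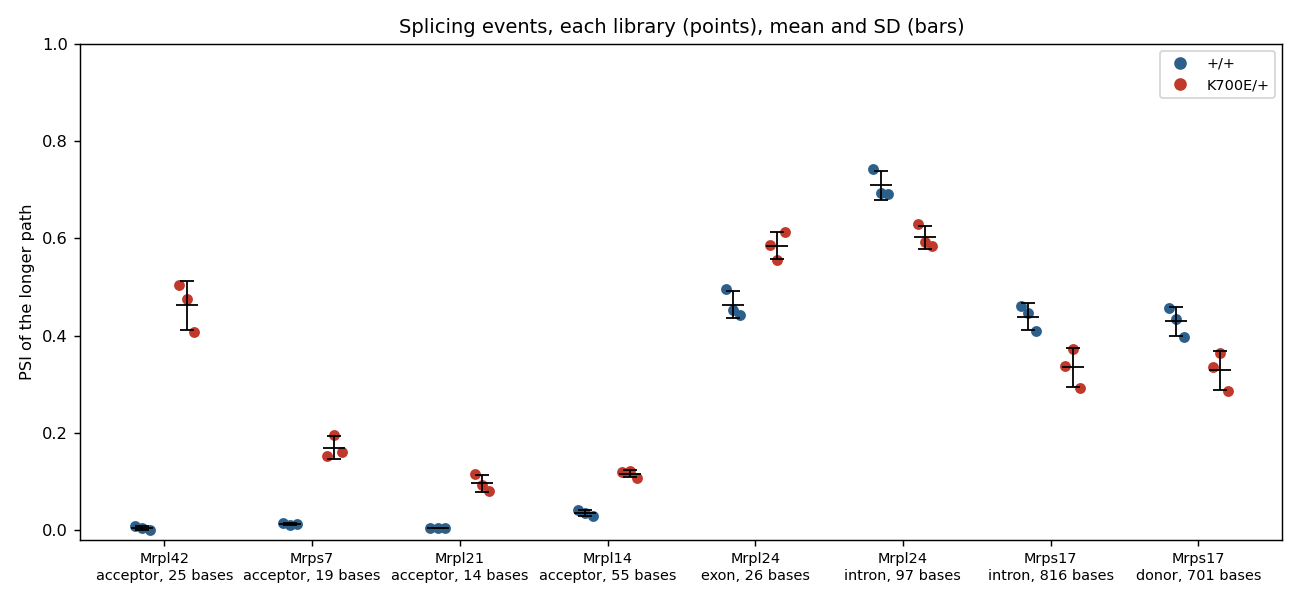
PSI of the longer path (y axis) for 8 splicing events of mitoribosomal genes (x axis), in each library (points) with the mean and SD of 3 libraries per genotype (bars). The unannotated acceptors of Mrpl42, Mrps7, Mrpl21 and Mrpl14 are at 0.0406 or below in Sf3b1 +/+ cells and higher in every Sf3b1 K700E/+ library.

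Another pair of members had an unannotated upstream acceptor that passed the adjusted p but not the PSI difference of 0.10. Mrpl21 had 14 bases added at the acceptor of its last exon (chr19:3339047-3341017 of GRCm39). The PSI was 0.115, 0.0931 and 0.0808 in Sf3b1 K700E/+ and 0.00412, 0.00432 and 0.00408 in Sf3b1 +/+ libraries (difference 0.0920, adjusted p = 1.57e-10 from edgeR). Mrpl14 had 55 bases added ahead of its coding sequence (chr17:45997313-46006447 of GRCm39). Its PSI was 0.120, 0.121 and 0.108 against 0.0406, 0.0349 and 0.0286 (difference 0.0812, adjusted p = 4.57e-05 from edgeR). In all, 4 tested alternative acceptors of members had exactly 1 of their 3 splice sites unannotated, and all 4 had an adjusted p under 0.05 with the longer path higher. Among all such events 153 of 1140 had. The genes differed in level: Mrps7 and Mrpl14 were lower, Mrpl21 was higher (log2 fold change 0.23, adjusted p = 0.0105 from edgeR), and Mrpl42 did not pass the test.

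The other called events were smaller. In Mrpl24 (uL24m), a 26-base exon ahead of the coding sequence was included more often from the annotated donor nearest to it. The 97-base intron between them was retained less often (chr3:87826972-87829163 of GRCm39). The exon is shown in capitals with 2 bases on each side, from GENCODE M21.
Mrpl24 26-base exon: agGACGTTGGAGCTATCCGCATATCGGGct

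Its PSI was 0.586, 0.556 and 0.613 in Sf3b1 K700E/+ and 0.495, 0.452 and 0.443 in Sf3b1 +/+ libraries (difference 0.121, adjusted p = 0.0222 from edgeR). The PSI of the intron was 0.629, 0.593 and 0.585 against 0.743, 0.693 and 0.691 (difference -0.107, adjusted p = 0.0214 from edgeR). From an annotated donor farther upstream, the same exon had a PSI of 0.518 ± 0.0585 against 0.471 ± 0.0112, which overlapped (adjusted p = 0.572 from edgeR). Retention of the 151-base intron from that donor was 0.913 ± 0.0105 against 0.920 ± 0.0226 (SD, n = 3, adjusted p = 0.878 from edgeR). The level of Mrpl24 was 142 ± 7.66 and 148 ± 17.2 CPM (SD, n = 3), which overlapped. In Mrps17, an intron of 816 bases was retained less often, with a PSI of 0.338, 0.373 and 0.293 against 0.461, 0.447 and 0.409 (difference -0.104, adjusted p = 0.0257 from edgeR, chr5:129792937-129793829 of GRCm39). A donor event of Mrps17 with 701 more bases, whose longer path uses an unannotated donor (difference -0.101, adjusted p = 0.0334 from edgeR) has nearly the same reads on its shorter path as that intron and is no separate measurement. The spliced path of the intron had 202, 168 and 203 reads in Sf3b1 K700E/+ and 98, 94 and 104 reads in Sf3b1 +/+ libraries, while the retained path had 1195, 1160 and 975 against 973, 882 and 834. Retention of the Mrps17 introns of 832, 785, 765 and 115 bases that end at the same acceptor was not called. Their PSI differences were -0.0580, -0.0157, 0.0306 and -0.0358 (adjusted p = 0.348, 0.830, 0.620 and 0.670 from edgeR). The calls in Mrpl24 and Mrps17 were each lost on leaving out 3 or 4 of the 6 libraries in turn and with limma on logit PSI.

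Of 39 tested intron retention events of members, 2 were called, both lower, and the median PSI difference was -0.02, the same as over all 5706 intron retention events. Besides the called ones, Mrps10 had an 84-base intron with a PSI of 0.0948 ± 0.0106 in Sf3b1 K700E/+ and 0.192 ± 0.0270 in Sf3b1 +/+ cells (SD, n = 3), a difference of -0.0975 just inside the threshold of 0.10 (adjusted p = 0.00404 from edgeR). The largest differences that were not called lay in Mrpl33 (introns of 336 and 249 bases, differences of -0.334 and -0.193, adjusted p = 0.208 and 0.184 from edgeR) and at a donor of Mrpl23 (-0.201, adjusted p = 0.211 from edgeR). Their shorter paths held at most 19 reads in any library. For Mrps23, a pair of annotated donors with 95 and 228 more bases was used more in Sf3b1 K700E/+ cells, by 0.0516 and 0.0245.

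Mrpl53 was the only member without a count in any library. The splicing table nevertheless holds reads over 2 of its introns, with 189 to 324 reads of the spliced path per library for the 110-base intron that it shares with the overlapping gene Gm42688, and 192 to 279 reads for the 95-base intron placed in Mrpl53 alone. Retention at the latter was 0.0760 ± 0.00497 in Sf3b1 K700E/+ and 0.0716 ± 0.0119 in Sf3b1 +/+ cells (SD, n = 3), which overlapped. The missing count therefore does not show that Mrpl53 was not transcribed.

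RefSeq promoters (GRCm38.p6, 250 bases before to 50 after the start) were matched for 69 of the 78 genes. The letters GCGC, then any base, then TGCGC, the core of the binding motif of NRF1, a regulator of nuclear genes for mitochondria, stood on either strand in 18.8% of them and in 4.78% of all 27025 promoters of this length. The letters CCGGAAGT, a binding motif of the ETS family that includes GABPA, stood in 15.9% of them and in 4.0% of all. The NRF1 letters stood in 3 of 18 promoters of higher genes, 2 of 5 of lower genes and 8 of 45 of those not past the test. The ETS letters stood in 0 of 18, 1 of 5 and 10 of 45, and the difference between these groups was not tested. Mrps11 and Mrpl46, both higher, are transcribed away from each other from starts 41 bases apart. The 70 bases before the start of Mrps11 (chr7:78783061-78783130, plus strand) end with the 41 bases between the starts, and those ahead of them lie within the Mrpl46 transcript. The 90 bases before the start of Mrpl17 (chr7:105811088-105811177, minus strand) hold the NRF1 letters as read on the other strand, in capitals.
Mrps11 upstream stretch: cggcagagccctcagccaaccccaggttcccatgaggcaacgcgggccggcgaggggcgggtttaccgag
Mrpl17 upstream stretch: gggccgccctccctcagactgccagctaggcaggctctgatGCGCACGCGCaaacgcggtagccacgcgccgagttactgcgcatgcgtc

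The genes that build and use the mitochondrial ribosome were described by lists. Of all genes tested, 44.4% were called, 21.3% as higher and 23.1% as lower. The share called was 57.7% for assembly and rRNA modification, 40% for ribosomal proteins with other symbols and 35.3% for translation factors. It was 50% for aminoacyl-tRNA synthetases, 31.6% for mitochondrial DNA and RNA synthesis, 50% for regulators and 40% for the mitochondrial genome. The difference from all genes was not tested. Of 26 tested genes for ribosome assembly and rRNA modification, 12 were higher and 3 lower (median log2 fold change 0.17), and 9 in all were called without Sf3b1 K700E/+ replicate 2 or without Sf3b1 +/+ replicate 3. Mrm1, a methyltransferase of the large ribosomal RNA, was at 91.1, 117 and 126 CPM in Sf3b1 K700E/+ and at 49.5, 59.2 and 59.8 CPM in Sf3b1 +/+ libraries (log2 fold change 0.99, adjusted p = 0.000228 from edgeR). Ngrn, needed for that RNA and located on chromosome 7, was higher by 0.91 on the log2 scale (adjusted p = 1.94e-05), and Rmnd1, which supports mitochondrial translation, had a value of -0.55 (adjusted p = 0.000351), both from edgeR. Of the 5 ribosomal proteins with other symbols, Dap3 (log2 fold change 0.18, adjusted p = 0.0168 from edgeR) and Gadd45gip1 (0.19, adjusted p = 0.0260 from edgeR) were higher. Both calls were lost on leaving out replicate 3 of either genotype and with scaling by library size alone, whereas 4 of the 5 genes were called with the replicate block.

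Of 17 translation factors 3 were higher and 3 lower (median 0.08), and 10 were called with the replicate block. The initiation factor gene Mtif3 was lower (log2 fold change -0.83, adjusted p = 5.32e-05 from edgeR), the elongation factor gene Tufm on chromosome 7 higher (0.45, adjusted p = 0.000293 from edgeR) and the release factor gene Mtrf1l lower (-0.49, adjusted p = 0.00165 from edgeR). Of 20 mitochondrial aminoacyl-tRNA synthetase genes 7 were higher and 3 lower (median 0.08), led by Nars2 on chromosome 7 (1.09, adjusted p = 3.73e-05), Cars2 (-0.61, adjusted p = 8.58e-05) and Mars2 (0.58, adjusted p = 0.000486), all from edgeR. Of 19 genes for synthesis and processing of mitochondrial DNA and RNA 4 were higher and 2 lower (median 0.12), with the helicase gene Twnk at 0.61 (adjusted p = 7.03e-05 from edgeR). Of 8 tested regulators 3 were higher and 1 lower (median 0.24), among them Gabpb1 (0.46, adjusted p = 0.000380), Myc (0.43, adjusted p = 0.00127) and Pprc1 (0.32, adjusted p = 0.00582), all from edgeR.

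**Figure D5:**
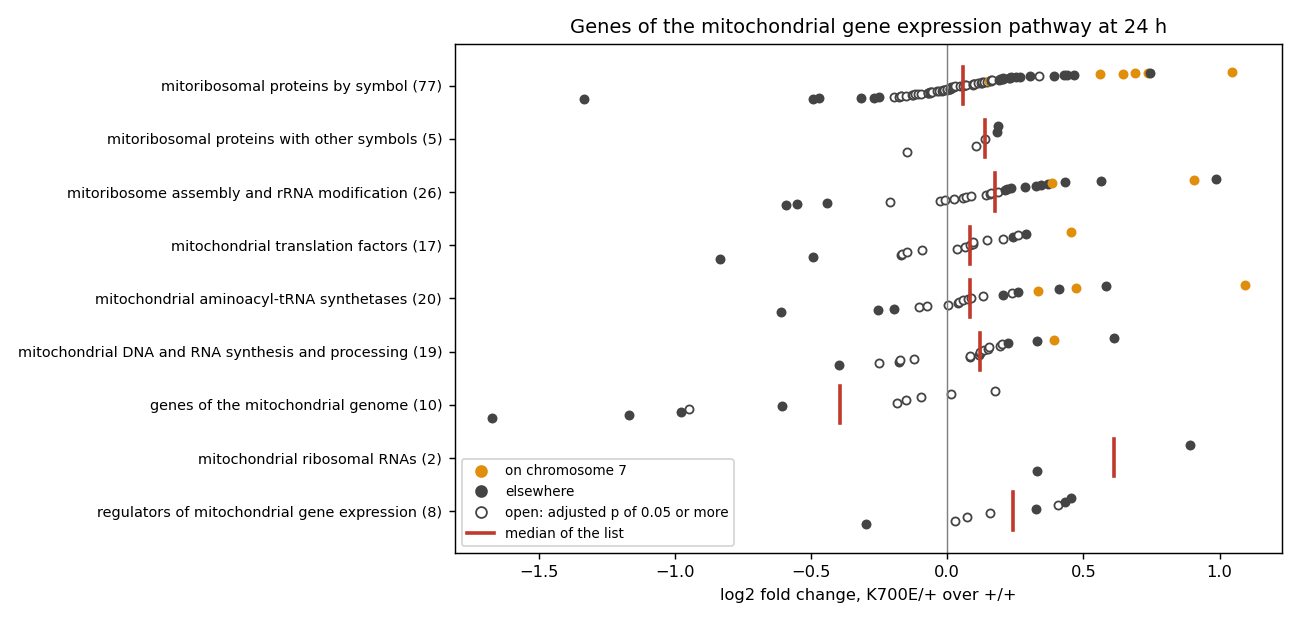
Log2 fold change (x axis, Sf3b1 K700E/+ over Sf3b1 +/+) of single genes (points) of the mitoribosomal genes and 8 lists of the pathway (y axis, number of tested genes in parentheses), with red lines for the medians, filled points for an adjusted p under 0.05 and orange points for chromosome 7. The nuclear lists have medians between 0.06 and 0.24, and the genes of the mitochondrial genome lie mostly below 0.

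Of the 13 protein genes of the mitochondrial genome 10 were tested, and 4 were lower and none higher (median -0.40). The respiratory complex I gene mt-Nd2 was at 1122, 1245 and 1021 CPM in Sf3b1 K700E/+ and at 3737, 3170 and 3874 CPM in Sf3b1 +/+ libraries (log2 fold change -1.67, adjusted p = 5.08e-06 from edgeR). The cytochrome b gene mt-Cytb was lower, at -1.17 on the log2 scale (adjusted p = 1.57e-05), as was mt-Nd4 at -0.98 (adjusted p = 1.40e-05), both from edgeR. The other 6 did not pass the test, and some are named here after their values were seen. Mean levels were 4866 against 4826 CPM for mt-Co1 and 2354 against 2614 CPM for mt-Nd1 (adjusted p = 0.942 and 0.324 from edgeR). For mt-Atp6, mt-Co2 and mt-Co3 the mean levels were only 0.581 to 1.93 CPM. The ribosomal RNAs were higher: mt-Rnr1, of the small subunit, was at 146, 144 and 121 against 58.8, 70.8 and 92.2 CPM (log2 fold change 0.89, adjusted p = 0.00122 from edgeR) and mt-Rnr2, of the large subunit, at 215, 247 and 215 against 173, 157 and 208 CPM (log2 fold change 0.33, adjusted p = 0.0285 from edgeR). Poly(A) selection retains little ribosomal RNA, and reads of mitochondrial genes can be split with nuclear copies, so these values are less certain than those of the nuclear genes. With scaling by library size alone, or on leaving out replicate 2 of either genotype, 1 of these ribosomal RNAs was called.

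As a check of the cells, all 14 erythroid markers were measured, 2 higher and 2 lower, and their summed level was 10616 to 16161 CPM in Sf3b1 K700E/+ and 12611 to 17065 CPM in Sf3b1 +/+ libraries. Gata1, which the parental line lacks and the fusion supplies, was at 322, 323 and 315 CPM in Sf3b1 K700E/+ and at 149, 175 and 155 CPM in Sf3b1 +/+ libraries (log2 fold change 1.00, adjusted p = 9.43e-06 from edgeR). Sf3b1 was at 756, 766 and 742 against 741, 738 and 763 CPM, which overlapped (adjusted p = 0.858 from edgeR). Markers of other blood cells were scarce but not alike between the genotypes. The 14 granulocyte and macrophage markers summed to 0.0799 to 0.131 CPM in Sf3b1 K700E/+ and 9.72 to 30.9 CPM in Sf3b1 +/+ libraries, with Camp, Ctsg, Elane, Ngp and S100a8 at 0 in all. The 6 eosinophil, basophil and mast cell markers summed to 1.02 to 3.44 against 10.6 to 35.6 CPM, with Mcpt8 at 0 in all. The 6 megakaryocyte markers summed to 8.71 to 17.8 against 16.3 to 27.9 CPM, with Gp1bb and Vwf at 0 in all. The 4 lymphoid markers summed to 0 in Sf3b1 K700E/+ and to 0.0246 to 0.0499 CPM in Sf3b1 +/+ libraries, with Cd3e and Cd8a at 0 in all. Their part in the differences of the mitoribosomal genes was not tested.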

How the data were processed

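The deposited values were raw read counts per gene, which the authors made with STAR 2.7.9 on GRCm39 per the labels (the annotation release and strand setting are not given in the sources used here), and packed read numbers of both paths of 19323 splicing events from KisSplice, with a deposited PSI fraction per library. The labels also list DESeq2 1.30.1, and no comparison column of the authors was used. The comparison planned before estradiol was not analysed here. Members, lists and tests were chosen with earlier results of these data known.

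The gene test was that of edgeR 4.0.16 under R 4.3.3 (filterByExpr, TMM, glmQLFTest on genotype, Benjamini-Hochberg over 12547 genes). Fold changes are on the log2 scale, and their SE came from the fold change and its F value. CPM of single genes used TMM-scaled library sizes, whereas levels summed over members or marker lists used library totals alone. Totals were 38785471 to 50077827 counts. For events, reads of both read files were summed. Rows placed at several positions and rows of insertions, deletions or SNPs were left out, and path counts were fitted in edgeR with terms for the library, for the path and for the interaction of path and genotype. The recomputed PSI correlated with the deposited PSI at 0.983 over 108523 values. Alternatives were other scalings and filters, DESeq2 1.42.0, limma 3.58.1, a replicate block and leaving out each library. Scripts were tested on simulated data. Chromosomes came from GENCODE M21 by Ensembl ID, and all 5313 genes that the event table also places had the same chromosome there.

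Libraries with the same number deviated together (correlations of 0.416, 0.185 and 0.261 over the tested genes). Between unlike numbers the correlations ran from -0.304 to 0.118, and those between replicates 2 and 3 were 0.118 and 0.0955. The replicate numbers of the labels were taken to pair the libraries, although replicates 2 and 3 were less clearly told apart. The main test was planned with a term for genotype alone and leaves this pairing out. With the replicate number as a block, 27 members were higher and 11 lower. Within a genotype, libraries differed by more than sampling noise (chi-square per degree of freedom of 8.07 to 35.6). Genes named are members with a called event or an absolute log2 fold change over 1, the 10 lowest adjusted p in each direction, members without counts, and up to 3 genes per pathway list; events named are those called and the 3 largest differences not called. Exceptions are stated.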

Additional observations from a re-analysis of the deposited data

Results flagged for a closer look

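Outside the splicing and count comparisons, the event table holds a row for Mrpl16, a large subunit gene, that it classes as an insertion of 8 bases with no known splice site (chr19:11752100-11752172 of GRCm39). It is given here since its signal was above the level in the Sf3b1 +/+ libraries. The longer path had 34, 30 and 41 reads of 55, 44 and 50 reads in the Sf3b1 K700E/+ libraries, in all 105 of 149 or 70.5% (95% exact binomial interval 62.5% to 77.7%). It had 0 of 20, 23 and 19 reads in the Sf3b1 +/+ libraries, and 0 of 62 reads allow a share of up to 5.78% by the same exact interval. These limits cover counting error only. The level of Mrpl16 was 48.0 ± 1.27 CPM in Sf3b1 K700E/+ and 52.1 ± 2.92 CPM in Sf3b1 +/+ cells (SD, n = 3), a difference of -0.12 on the log2 scale (adjusted p = 0.171 from edgeR).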

How the results depend on the processing

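Among the 13 alternatives for genes, the count of higher members was 16 with scaling by library size alone, 19 to 22 with the other scalings, filters and DESeq2, and 27 with the replicate block, and leaving out 1 library gave 12 to 27. The count of lower members was 6 except for 10 with library size alone and 11 with the replicate block, and 4 to 8 on leaving out 1 library. The block, for libraries paired by number, kept all 20 higher and all 6 lower members. The median log2 fold change of the members (0.0583) was 0.0680 with DESeq2 size factors and with the DESeq2 Wald test, 0.0745 with no filter on low counts, 0.0146 with library size alone, and 0.0352 to 0.114 on leaving out 1 library. Against 6 called splicing events, a PSI threshold of 0.20 gave 1, limma on logit PSI 2, the path by replicate block 7, and leaving out 1 library 3 to 5. Over the mitochondrial pathway lists 49 genes were called, and 35 to 58 on leaving out 1 library. After seeing the data 3 alternatives were added: junction reads only (6 events called), scaling without chromosome 7 (19 of 71 members higher, 6 lower, median 0.0505) and scaling on chromosome 7 alone. Mrpl48, above 0 otherwise, was lower under the last of these. The called log2 fold changes of the other members named kept their direction in every alternative run. Precision is limited by 3 libraries of 1 clone per genotype.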
